A study of Mus musculus with 4 samples.

Results

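Long noncoding RNAs (lncRNAs) are transcripts that act, where a function is known, without being translated. Some give rise to microRNAs or small nucleolar RNAs (snoRNAs), some come from imprinted loci that are read from only the maternal or the paternal chromosome, and some stay in the nucleus as parts of nuclear bodies. Here, 10 such genes of the 24062 in the count table were followed in mouse retinas at E13.5, where E stands for the embryonic day. They are the imprinted *H19*, *Meg3*, *Rian* and *Mirg*, the neuronal *A930011O12Rik* and *Miat*, the snoRNA host gene *Snhg11*, the nuclear *Malat1* and *Neat1*, and *Six3os1*, which lies beside the eye-field gene *Six3*. They were chosen by name with values of this comparison known, so their own differences and calls between genotypes are a description that supports nothing, and no p-value is given for them.

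The study asked how loss of Nrf1, a transcription factor of many nuclear genes for mitochondrial proteins, alters the developing retina. RNA was sequenced from 2 wildtype (WT) libraries and 2 libraries of *Nrf1* conditional knockouts (Nrf1-CKO, *Nrf1f/f;Six3-Cre*), all at E13.5 on a mixed C57BL/6 and 129 background. Each library was a pool of retinas from several littermates, so a standard error or p-value here measures the spread between pools. *Six3-Cre* acts first in the central retina, the floxed allele loses 1 internal exon, and the sources used here do not state whether the WT embryos carried Cre.

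Between 74577660 and 85933945 reads were counted on genes per library. *Nrf1* itself was at 103 and 105 CPM, the reads of a gene scaled to a common library size, in WT and at 103 and 100 CPM in Nrf1-CKO. A gene-level count cannot show the loss of 1 exon. The retinal genes *Pax6* and *Rax* were abundant in all 4 libraries. All 14 of 14 retinal ganglion cell (RGC) markers fell in Nrf1-CKO, and their summed level was 2316 and 2620 CPM in WT and 933 and 693 CPM in Nrf1-CKO. Markers of other tissues were higher in Nrf1-CKO: lens markers summed to 140 and 380 CPM in WT and to 7946 and 3250 CPM in Nrf1-CKO, and macrophage and microglia markers to 91.3 and 83.9 CPM and to 266 and 322 CPM. Fewer cells of a type and less RNA per cell cannot be told apart in such bulk samples.

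All 10 genes passed the filter on low counts. A call required a 1.4-fold difference or more together with an adjusted p no higher than 0.2 in edgeR's quasi-likelihood test over 15762 genes. By this rule 3 of the 10 were lower (*A930011O12Rik*, *Miat* and *Snhg11*) and 2 were higher (*H19* and *Neat1*) in Nrf1-CKO. Of all genes tested, 8.04% were called lower, 12.8% higher and 20.9% in either direction, and of the 649 that RefSeq types as lncRNA, 7.55% were called lower, 10.3% higher and 17.9% in either direction. The levels of the genotypes did not overlap for 3 genes that were lower and 3 that were higher, the additional gene being *Malat1*. Of all genes tested, 31.6% were lower without overlap, 30.9% higher and 62.5% either way. Nothing is read from these shares, since the 10 genes were selected on this comparison.

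**Figure D1:**
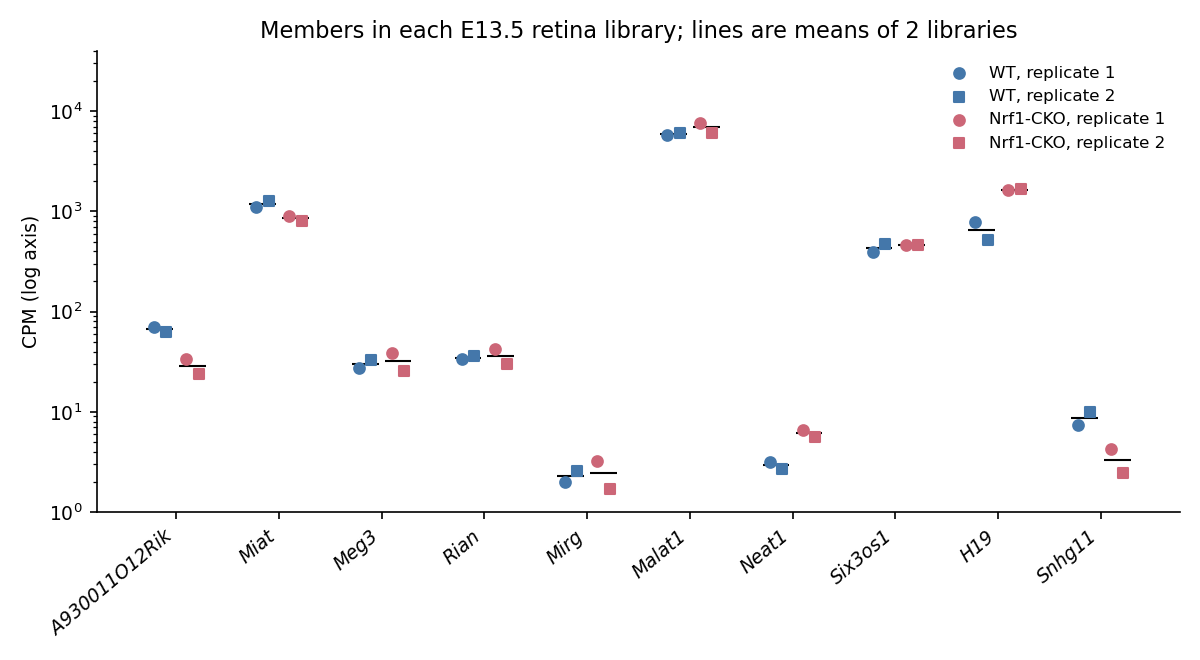
Level of each lncRNA (CPM, log axis) in the 4 libraries, with circles for replicate 1, squares for replicate 2 and lines for the means of 2 libraries. *A930011O12Rik*, *Miat* and *Snhg11* were lower in both Nrf1-CKO libraries (red) than in both WT libraries (blue), and *H19* and *Neat1* were higher.

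Sequences of the RNAs that these genes carry, and of 2 promoters, are shown because several of these genes are known as hosts of small RNAs, and because *Miat* and *Snhg11* were both lower in the mutant. *H19* holds the hairpin of miR-675 in an exon, and *Meg3* holds those of miR-770 and miR-1906 in exons. *Rian* holds 3 hairpins in introns, and *Mirg* is the host of 14 hairpins, which give 26 mature microRNAs in the table used. The mature sequences from RefSeq (GRCm38.p6) are given 5′ to 3′, with the seed (bases 2 to 8) in capitals. *A930011O12Rik* is the host of miR-124a-1. The mature microRNAs in the table are all shown for *H19* and *Meg3*, with examples for *Rian* and *Mirg*. No pair of these 9 shares a seed, and miR-410-3p shares its seed with miR-344d-3p and miR-344e-3p, which lie elsewhere.
miR-675-5p (*H19*): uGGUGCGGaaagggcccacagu
miR-675-3p (*H19*): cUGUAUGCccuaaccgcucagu
miR-770-5p (*Meg3*): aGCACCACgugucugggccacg
miR-770-3p (*Meg3*): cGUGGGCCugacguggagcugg
miR-1906 (*Meg3*): uGCAGCAGccugaggcagggcu
miR-341-3p (*Rian*): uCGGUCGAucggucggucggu
miR-370-3p (*Rian*): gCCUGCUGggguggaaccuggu
miR-134-5p (*Mirg*): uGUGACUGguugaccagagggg
miR-410-3p (*Mirg*): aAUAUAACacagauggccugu

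Within *Mirg*, miR-453 and miR-496a-5p are a pair with the same seed.
miR-453 (*Mirg*): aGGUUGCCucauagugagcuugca
miR-496a-5p (*Mirg*): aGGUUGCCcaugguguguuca
Mature microRNAs were not measured. The hairpin genes *Mir124a-1*, *Mir675*, *Mir770* and *Mir1906-1* have rows of their own in the count table and are listed at 0 reads in all 4 libraries. Each lies inside an exon of its host, where a read belongs to both genes, so these zeros do not give the level of the hairpin.

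The RefSeq promoters of *Miat* (chr5:112228899-112229198, minus strand) and *Snhg11* (chr2:158375463-158375762, plus strand), both on GRCm38.p6, run from 250 bases before to 50 bases after the RefSeq start. Bases from that start on are in capitals. The GENCODE genes begin upstream of both RefSeq starts. All lowercase bases of *Miat* and some of *Snhg11* thus lie within the GENCODE gene.
Miat promoter: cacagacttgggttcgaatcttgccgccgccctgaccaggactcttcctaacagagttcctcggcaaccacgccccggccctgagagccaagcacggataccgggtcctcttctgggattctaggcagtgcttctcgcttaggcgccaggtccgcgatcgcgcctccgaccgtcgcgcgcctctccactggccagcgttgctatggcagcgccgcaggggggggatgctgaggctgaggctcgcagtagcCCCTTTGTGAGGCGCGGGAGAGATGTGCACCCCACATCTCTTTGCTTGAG
Snhg11 promoter: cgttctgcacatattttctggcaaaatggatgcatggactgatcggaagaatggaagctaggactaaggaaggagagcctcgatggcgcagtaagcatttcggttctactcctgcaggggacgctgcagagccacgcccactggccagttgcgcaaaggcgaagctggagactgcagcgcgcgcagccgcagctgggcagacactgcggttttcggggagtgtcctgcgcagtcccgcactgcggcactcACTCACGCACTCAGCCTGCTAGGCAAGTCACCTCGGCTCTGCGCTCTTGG
These windows hold 25 CpG in *Miat* and 21 in *Snhg11* against a median of 7 over all promoters. Of all promoters, 81.6% and 75.2% have fewer. The window of *Six3os1*, which was not called, holds 20. The core of the NRF1 motif, CGCATGCG, was searched on both strands, as was its looser form CGCANGCG, which includes every match of the core. The core was found in 1.87% and the looser form in 8.21% of 32851 promoters. Neither was found in any of the 8 promoters that the table gives for 7 of the 10 genes. Such a search says only that these letters are not in these windows. The windows of *Miat* and *Mirg*, and the second of *Meg3*, lie inside the GENCODE span of the gene and not at its annotated 5′ end.

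*A930011O12Rik* (ENSMUSG00000097545, chr14:64587331-64593961, plus strand, up to 4 exons) is the host gene of miR-124a-1, a microRNA abundant in neurons. It had 6163 and 4645 reads in WT and 2800 and 1998 reads in Nrf1-CKO. The levels were 70.4 and 62.6 CPM in WT (66.5 ± 5.48, mean ± SD, n = 2) and 33.7 and 24.1 CPM in Nrf1-CKO (28.9 ± 6.76, n = 2). Both mutant libraries were below both WT libraries, and the level was 2.3-fold lower, a log2 fold change of -1.20 ± 0.14 (SE). With any 1 library left out, it ran from -1.46 to -0.98. Its neighbour within 100 kb, *Kif13b*, a kinesin gene, was at 64.8 and 69.9 CPM in WT and 62.0 and 58.7 CPM in Nrf1-CKO, and was not called (log2 fold change -0.16 ± 0.08, adjusted p = 0.199).

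The summed RGC markers fell in the same libraries, and their part in the lower *A930011O12Rik* was not tested. The genes with the most similar profile over the 4 libraries, by root mean square difference of centred log2 CPM among 11326 genes of at least 5 CPM, were *Tub* (0.0401), *Trim13* (0.0671) and *Serpini1* (0.0676). *Tub*, which encodes a protein of neurons and cilia, was at 148 and 133 CPM in WT and 68.9 and 53.3 CPM in Nrf1-CKO. Likeness over 4 libraries from 2 genotypes is a weak measure and is given as a description.

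Genes reported as targets of miR-124 were all tested, and 2 of 18 rose, 2 fell and 14 were not called. Over all genes 12.8% were called higher and 8.04% lower. Without overlap between genotypes, 10 of 18 were higher and 4 lower, beside 30.9% and 31.6% of all genes, and 10 of 18 had an unadjusted p under 0.05, beside 34.8%. The median log2 fold change was 0.16, against 0.00 over all genes tested. The list was not tested as a set. *Jag1*, a Notch ligand, rose from 65.8 and 58.7 CPM in WT to 121 and 111 CPM in Nrf1-CKO (log2 fold change 0.90 ± 0.09, adjusted p = 0.000252). *Lamc1*, a laminin chain of basement membranes, rose from 135 and 125 CPM to 225 and 213 CPM (0.75 ± 0.08, adjusted p = 0.000327). Both genes are also used by vessels and the lens, whose markers were higher in the same libraries, and the part of those tissues was not tested. In the other direction, *Cdk6*, a G1 kinase, fell from 31.0 and 39.3 CPM to 22.4 and 18.6 CPM (-0.78 ± 0.14, adjusted p = 0.00418). *Sox9*, a factor of progenitors and glia, fell by 0.55 ± 0.12 on the log2 scale (adjusted p = 0.0126), a call that was lost without WT replicate 2 (-0.41) and without Nrf1-CKO replicate 2 (-0.46). *Ptbp1*, the splicing repressor often cited as a target, was at 411 and 390 CPM in WT and 434 and 470 CPM in Nrf1-CKO and was not called (adjusted p = 0.174).

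*Miat* (ENSMUSG00000097767, chr5:112213228-112229395, minus strand, up to 7 exons), also known as *Gomafu* or *Rncr2*, is a nuclear lncRNA of neurons and retinal precursors. It had 97724 and 94683 reads in WT and 75153 and 66305 reads in Nrf1-CKO. In CPM these were 1116 and 1277 in WT (1196 ± 114, n = 2) and 905 and 801 in Nrf1-CKO (853 ± 73.0, n = 2). The genotypes did not overlap, but the difference, a log2 fold change of -0.49 ± 0.10, lay just past the 1.4-fold limit, which is 0.485 on this scale. It was under the limit without WT replicate 2 (-0.38) and without Nrf1-CKO replicate 2 (-0.40). The order of the 4 libraries was that of the summed RGC markers, whose part was not tested.

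The closest profiles to *Miat* were those of *Tmem256* (root mean square difference 0.0197), *Med11* (0.0230) and *Fam219a* (0.0236). None of them is a neuronal marker of the lists. Of 4 neighbours tested within 100 kb of *Miat*, 2 rose, where 12.8% of all genes did. They are the beta-crystallin genes *Cryba4*, at 8.53 and 13.8 CPM in WT and 384 and 128 CPM in Nrf1-CKO, and *Crybb1*, at 16.1 and 47.5 CPM and 1053 and 424 CPM. These lens genes lie 17.1 and 26.4 kb from *Miat* and moved with the other lens markers, in the direction opposite to *Miat*. With any 1 library left out, log2 fold changes ran from 3.53 to 5.11 for *Cryba4* and from 3.74 to 5.52 for *Crybb1*. The neighbours *Tpst2* (log2 fold change 0.07 ± 0.13) and *Tfip11* (0.07 ± 0.08) were not called.

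*Snhg11* (ENSMUSG00000044349, chr2:158375638-158386145, plus strand, up to 6 exons) hosts snoRNAs and is expressed in neurons. RefSeq types it as lncRNA, whereas GENCODE lists it as protein coding. It had 647 and 741 reads in WT and 353 and 201 reads in Nrf1-CKO. The levels were 7.39 and 9.99 CPM in WT (8.69 ± 1.84, n = 2) and 4.25 and 2.43 CPM in Nrf1-CKO (3.34 ± 1.29, n = 2). The log2 fold change was -1.38 ± 0.27, and it ran from -1.84 to -1.03 with any 1 library left out and was -0.74 with the deposited log2 values. Its libraries too stood in the order of the summed RGC markers, and their part was not tested.

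Other snoRNA host genes give the comparison for *Snhg11*. Of 13 tested, 0 were called in edgeR's quasi-likelihood test, in DESeq2 or with limma, and 4 had an unadjusted p under 0.05. Their log2 fold changes lay between -0.38 and 0.48 with a median of 0.23. *Gas5*, which hosts snoRNAs in its introns and whose RNA is growth regulated, was at 331 and 307 CPM in WT and 372 and 398 CPM in Nrf1-CKO (0.27 ± 0.08, adjusted p = 0.0485, under the fold limit). *Snhg12* had the highest value, 10.3 and 10.6 CPM in WT and 13.4 and 15.5 CPM in Nrf1-CKO (0.48 ± 0.13, adjusted p = 0.0276), again under the limit. Over all genes 20.9% were called in either direction and 34.8% had an unadjusted p under 0.05. The difference from *Snhg11* was not tested. The neighbours of *Snhg11* that were tested, 3 in all, were not called, with *Ralgapb* at -0.09 ± 0.07.

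**Figure D2:**
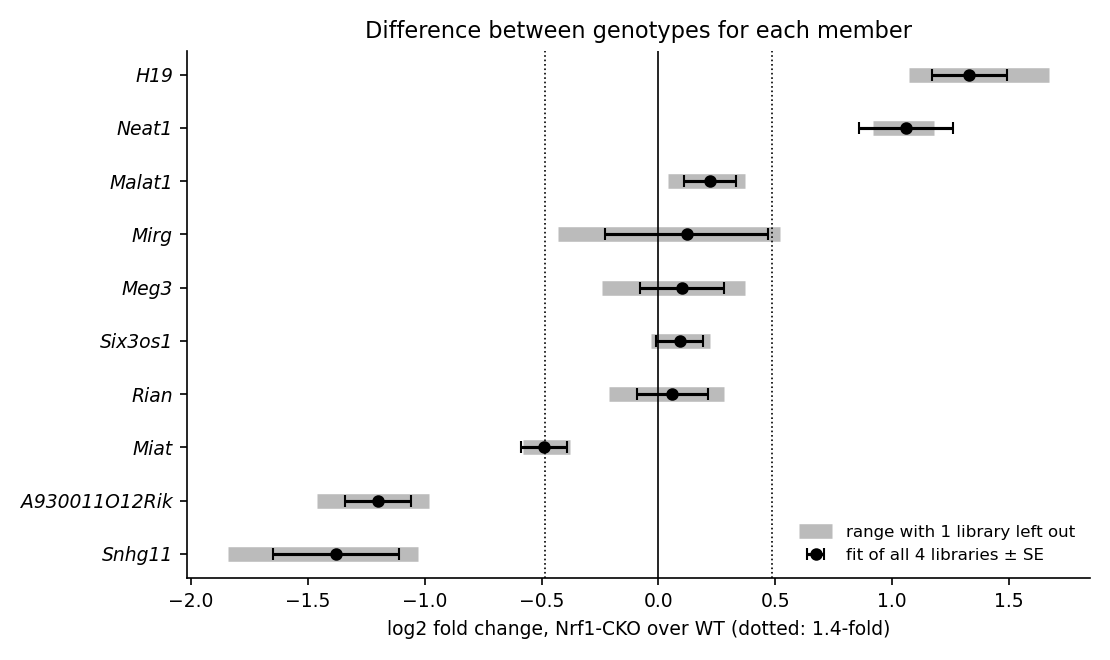
Log2 fold change of each lncRNA, Nrf1-CKO over WT, as points with SE from the fit of 4 libraries, with grey bars for the range when 1 library is left out and dotted lines at 1.4-fold. *Snhg11*, *A930011O12Rik*, *H19* and *Neat1* stay past the lines on the whole grey bar, the bar of *Miat* crosses its line, and the other 5 points lie near 0, with a bar for *Mirg* that reaches past the upper line.

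*H19* (ENSMUSG00000000031, chr7:142575529-142578143, minus strand, up to 5 exons) is a maternally expressed lncRNA that falls silent in most tissues after birth. It had 68996 and 38610 reads in WT and 134648 and 138486 reads in Nrf1-CKO. The levels were 788 and 521 CPM in WT (654 ± 189, n = 2) and 1621 and 1674 CPM in Nrf1-CKO (1647 ± 37.5, n = 2). WT replicate 2 was the lowest library, and even so both mutant libraries were above both WT libraries. The level was 2.52-fold higher, a log2 fold change of 1.33 ± 0.16, and it was 1.67 without WT replicate 1 and 1.07 without WT replicate 2.

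*Igf2*, the paternally expressed growth factor gene that shares enhancers with *H19*, lies 72.6 kb away. It rose from 127 and 116 CPM in WT to 315 and 283 CPM in Nrf1-CKO (log2 fold change 1.30 ± 0.09, adjusted p = 9.62e-05). The ratio of *H19* to *Igf2* reads within a library was 6.21 and 4.50 in WT and 5.15 and 5.92 in Nrf1-CKO, so the genotypes overlapped in the ratio although both transcripts were higher. *Igf2os*, which lies antisense to *Igf2*, rose as well, from 6.21 and 5.07 CPM to 12 and 12.6 CPM (1.12 ± 0.15, adjusted p = 0.00106), but the strand used in counting is not stated and reads of the antisense partners cannot be told apart. On the other side of the locus, *Lsp1* and *Mrpl23* were not called (0.09 ± 0.12 and -0.93 ± 0.50). *Tnnt3*, a muscle troponin gene 59.5 kb from *H19*, was called higher from few reads, 13 and 5 in WT and 55 and 13 in Nrf1-CKO (1.89 ± 0.89, adjusted p = 0.17). That call was lost without WT replicate 1 (2.58), WT replicate 2 (1.46) or Nrf1-CKO replicate 1 (0.52), and without Nrf1-CKO replicate 2 the value was 2.58.

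*H19* and *Igf2* are abundant in embryonic mesenchyme and vessels. The 11 periocular mesenchyme markers summed to 298 and 211 CPM in WT and 458 and 398 CPM in Nrf1-CKO, where 7 of 11 rose. For the marker counts here, the shares over all genes were 12.8% called higher and 8.04% lower. Among the endothelium markers 8 of 10 rose and 1 fell, with sums of 293 and 295 CPM in WT and 330 and 327 CPM in Nrf1-CKO. Pigment epithelium markers rose in 5 of 7 tested and summed to 208 and 148 CPM in WT and 379 and 401 CPM in Nrf1-CKO, with *Rpe65* at or near 0 throughout. WT replicate 2 was thus the lowest library for *H19*, for mesenchyme and for pigment epithelium. The part of these tissues in the higher *H19* was not tested. The genes most similar in profile to *H19* were *Arap3* (root mean square difference 0.0501), *Ctss* (0.0566) and *Slc4a5* (0.0576), and *Ctss*, a lysosomal protease, is itself on the microglia list.

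**Figure D3:**
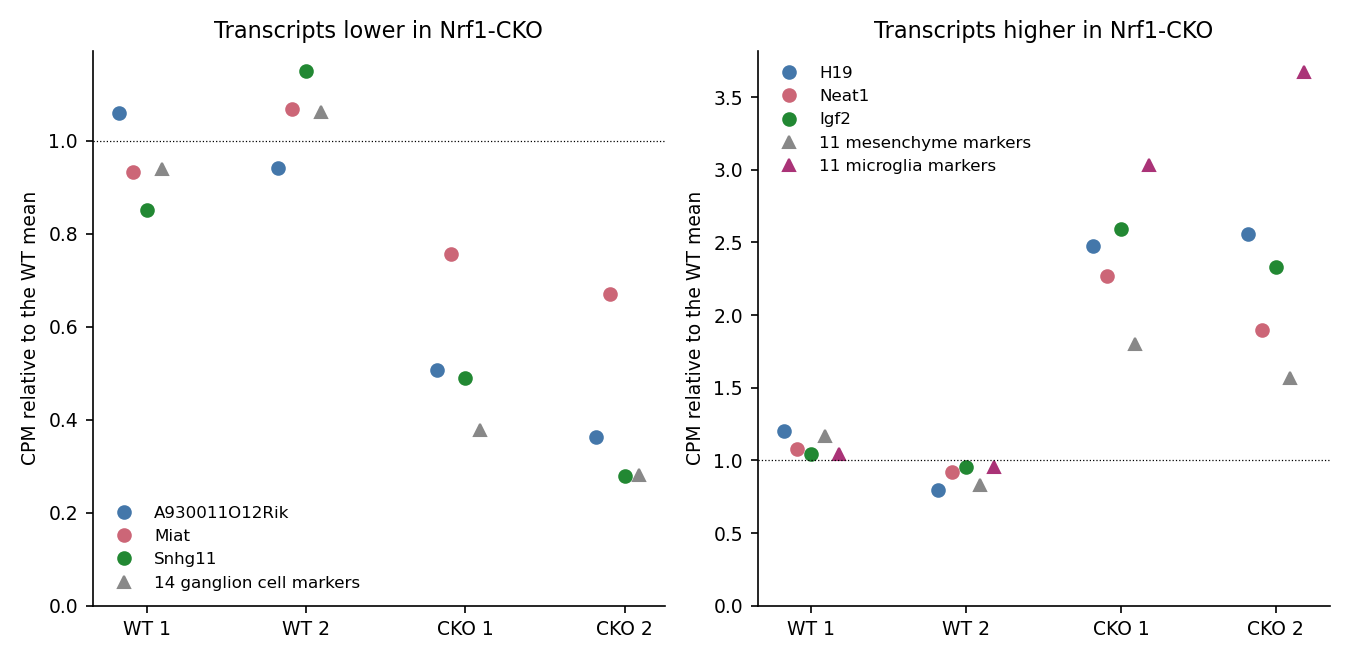
Levels relative to the WT mean (CPM ratio, linear axis from 0) in each library, for transcripts that were lower (left) and higher (right) in Nrf1-CKO. Circles are single genes and triangles are summed marker lists, namely RGC markers on the left and periocular mesenchyme and microglia markers on the right, and in each panel genes and lists lie on the same side of 1 in both Nrf1-CKO libraries.

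*Meg3*, *Rian* and *Mirg* come from the maternal chromosome of the Dlk1-Dio3 region on chromosome 12, in this order and on the same strand. *Meg3* (ENSMUSG00000021268, chr12:109541001-109571726) is a growth-restraining lncRNA. It was at 27.1 and 33.2 CPM in WT (30.2 ± 4.32, n = 2) and 39.1 and 25.6 CPM in Nrf1-CKO (32.3 ± 9.59, n = 2). The genotypes overlapped, since Nrf1-CKO held both the highest and the lowest library.

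*Rian* (ENSMUSG00000097451, chr12:109603940-109661716), which carries clusters of snoRNAs, was at 33.5 and 35.7 CPM in WT (34.6 ± 1.54, n = 2) and 42.0 and 29.9 CPM in Nrf1-CKO (35.9 ± 8.60, n = 2). *Mirg* (ENSMUSG00000097391, chr12:109729764-109749460), the microRNA host, was at 1.98 and 2.59 CPM in WT (2.28 ± 0.434, n = 2) and 3.27 and 1.69 CPM in Nrf1-CKO (2.48 ± 1.12, n = 2). The 4 libraries stood in 1 order for *Meg3*, *Rian* and *Mirg*, with Nrf1-CKO replicate 1 highest, then WT replicate 2, WT replicate 1 and Nrf1-CKO replicate 2. Log2 fold changes were 0.10 ± 0.18 for *Meg3*, 0.06 ± 0.15 for *Rian* and 0.12 ± 0.35 for *Mirg*, and without Nrf1-CKO replicate 1 they became -0.24, -0.21 and -0.43. Without WT replicate 1, *Meg3* and *Mirg* changed sign as well (-0.04 and -0.06).

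Ratios within a library do not depend on scaling. *Rian* to *Meg3* was 1.23 and 1.07 in WT and 1.07 and 1.17 in Nrf1-CKO. *Mirg* to *Meg3* was 0.0728 and 0.0779 in WT and 0.0837 and 0.0662 in Nrf1-CKO. Both ratios overlapped between genotypes, and for *Mirg* to *Meg3* the highest and the lowest value were both in Nrf1-CKO. An exact permutation test of 2 libraries against 2 cannot give a two-sided p below 0.333 for such a ratio. The closest profiles to *Meg3* were those of *Rnf165* (root mean square difference 0.0444), *Vamp2* (0.0459) and *4921524J17Rik* (0.0555).

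Of 6 other genes of the same region, 3 fell and 1 rose, where 8.04% and 12.8% of all genes did. *Dio3*, which encodes the deiodinase that inactivates thyroid hormone, fell from 43.2 and 54.5 CPM in WT to 15.1 and 14.5 CPM in Nrf1-CKO (log2 fold change -1.72 ± 0.12, adjusted p = 9.88e-05). *Dio3os*, its antisense neighbour, fell from 21.7 and 23.0 CPM to 9.28 and 8.40 CPM (-1.34 ± 0.12, adjusted p = 0.000162), and reads of the 2 overlapping genes cannot be told apart without strand. *Begain*, a postsynaptic protein gene, fell by 0.57 ± 0.14 on the log2 scale (adjusted p = 0.0209), a call lost without WT replicate 2 (-0.40). *Dlk1*, a Notch-like growth regulator read from the paternal chromosome, rose from 3.53 and 4.14 CPM to 7.38 and 4.82 CPM (0.67 ± 0.23, adjusted p = 0.0724), and this was lost without WT replicate 1 (0.56) and without Nrf1-CKO replicate 1 (0.33). *Rtl1*, at 0.175 to 0.320 CPM with genotypes that overlapped, was not called (0.22 ± 0.67).

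Imprinted genes of other loci moved in both directions: of 24 tested, 8 rose, 4 fell and 12 were not called, with a median log2 fold change of 0.22. Over all genes 12.8% were called higher and 8.04% lower, and the list was described by its counts without a set test. *Nnat*, a proteolipid gene of developing neurons, fell from 528 and 581 CPM in WT to 202 and 148 CPM in Nrf1-CKO (-1.66 ± 0.14, adjusted p = 0.00013). *Peg13*, a brain-expressed lncRNA, fell from 68.9 and 74.0 CPM to 38.7 and 31.6 CPM (-1.02 ± 0.11, adjusted p = 0.000287). Both are expressed in the nervous system. *Ndn*, a neuronal growth suppressor, was at the limit (-0.50 ± 0.09, adjusted p = 0.00375), and the call was lost without WT replicate 2 (-0.40) and without Nrf1-CKO replicate 2 (-0.47). *Snrpn* fell from 0.685 and 0.849 CPM to 0.0843 and 0.145 CPM (-2.73 ± 0.64, adjusted p = 0.0155), and its reads are uncertain because it overlaps *Snurf*. With the deposited log2 values the *Snrpn* call was lost (-0.41), and the gene did not pass a filter of 10 counts in every library.

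Among the imprinted genes that rose, *Mest*, a mesoderm-expressed hydrolase gene, went from 609 and 628 CPM in WT to 1001 and 1047 CPM in Nrf1-CKO (0.73 ± 0.08, adjusted p = 0.00033). *Cdkn1c*, an inhibitor of the cell cycle, went from 151 and 161 CPM to 237 and 229 CPM (0.58 ± 0.08, adjusted p = 0.000997). *Slc38a4*, an amino acid transporter gene, went from 47.8 and 42.0 CPM to 71.9 and 71.1 CPM (0.67 ± 0.09, adjusted p = 0.000786). In these 3 genes both mutant libraries were above both WT libraries. *Igf2r*, the receptor that clears Igf2, was at the fold limit (0.49 ± 0.08, adjusted p = 0.00211), and was under it without WT replicate 2 (0.48) and without Nrf1-CKO replicate 2 (0.47). The lncRNA *Airn*, antisense within *Igf2r*, rose from 0.948 and 0.458 CPM to 3.43 and 2.95 CPM (2.17 ± 0.38, adjusted p = 0.00383), and unspliced *Igf2r* reads cannot be told apart from it without strand. The *Airn* value was 2.80 without WT replicate 1, 1.75 without WT replicate 2 and 0.71 with the deposited log2 values. *Peg10* rose by 0.50 ± 0.11 (adjusted p = 0.0102), which was lost without WT replicate 1 (0.43) and without Nrf1-CKO replicate 1 (0.35). *Asb4* rose as well (1.05 ± 0.20, adjusted p = 0.0052). Thus *Meg3*, *Rian* and *Mirg* lay among the imprinted genes with small differences and *H19* among those with large ones.

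**Figure D4:**
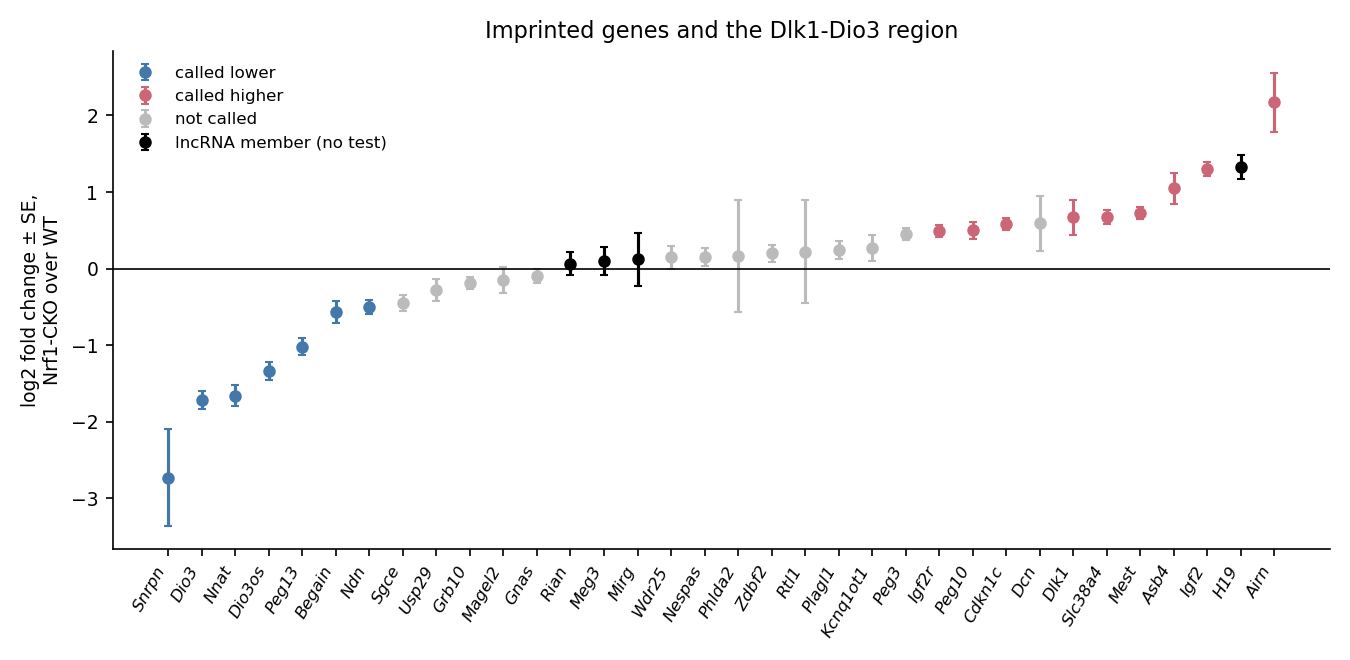
Log2 fold change with SE (Nrf1-CKO over WT) of 4 imprinted lncRNAs (black) among 6 genes of the Dlk1-Dio3 region and 24 other imprinted genes, coloured by their call. *H19* stands next to *Igf2* at the high end, while *Rian*, *Meg3* and *Mirg* lie near 0.

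*Malat1* (ENSMUSG00000092341, chr19:5795690-5802672, minus strand) is an abundant RNA of nuclear speckles, the bodies that store splicing factors. It had 507182 and 448962 reads in WT and 637596 and 503256 reads in Nrf1-CKO. In CPM these were 5791 and 6053 in WT (5922 ± 185, n = 2) and 7675 and 6083 in Nrf1-CKO (6879 ± 1126, n = 2). The genotypes did not overlap only by the narrow gap between WT replicate 2 and Nrf1-CKO replicate 2. The log2 fold change was 0.22 ± 0.11 and became 0.04 without Nrf1-CKO replicate 1, so that this library carried most of the difference.

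*Neat1* (ENSMUSG00000092274, chr19:5824708-5845478, minus strand), the scaffold RNA of paraspeckles, lies 22 kb from *Malat1*. It had 278 and 201 reads in WT and 554 and 462 reads in Nrf1-CKO. The levels were 3.17 and 2.71 CPM in WT (2.94 ± 0.328, n = 2) and 6.67 and 5.58 CPM in Nrf1-CKO (6.13 ± 0.767, n = 2). Both mutant libraries were above both WT libraries, and the log2 fold change was 1.06 ± 0.20, from 0.92 to 1.18 with any 1 library left out. The ratio of *Neat1* to *Malat1* was 0.000548 and 0.000448 in WT and 0.000869 and 0.000918 in Nrf1-CKO, without overlap. All 11 microglia markers, and most of the other non-retinal markers above, were higher in the same libraries, and their part in the higher *Neat1* was not tested.

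Of 11 genes other than *Malat1* tested within 100 kb of *Neat1*, 3 rose and 1 fell, where 12.8% and 8.04% of all genes did. *Ltbp3*, a gene for a latent TGF-beta binding protein, rose from 23.4 and 25.1 CPM in WT to 45.4 and 45.1 CPM in Nrf1-CKO (0.90 ± 0.09, adjusted p = 0.000236). *Ehbp1l1* (0.53 ± 0.13) and *Slc25a45* (1.09 ± 0.39) also rose and *Cdc42ep2* fell (-0.52 ± 0.23, adjusted p = 0.149). The *Ehbp1l1* call was lost without WT replicate 1 (0.45) or Nrf1-CKO replicate 2 (0.41), as was that of *Slc25a45* (0.85 and 0.92), and the *Cdc42ep2* call was lost without any 1 library (-0.61 to -0.43). *Frmd8*, the nearest gene at 4.22 kb from *Neat1*, was not called (0.14 ± 0.09).

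Of 20 genes for proteins of paraspeckles and nuclear speckles, 18 were not called, and over all genes 20.9% were called. *Nono*, *Sfpq* and *Pspc1*, the core paraspeckle proteins, had log2 fold changes of -0.22 ± 0.08, 0.06 ± 0.08 and -0.25 ± 0.07. *Celf3*, a neuronal splicing factor reported to bind *Miat*, fell from 116 and 129 CPM to 55.3 and 49.2 CPM (-1.23 ± 0.09, adjusted p = 9.88e-05).

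*Six3os1* (ENSMUSG00000093460, chr17:85600651-85618398, minus strand) starts beside *Six3* on the opposite strand, and is expressed in the retina with that eye-field factor. It had 34644 and 34960 reads in WT and 38459 and 37926 reads in Nrf1-CKO. The levels were 396 and 471 CPM in WT (433 ± 53.6, n = 2) and 463 and 458 CPM in Nrf1-CKO (461 ± 3.21, n = 2). Both mutant libraries lay between the WT libraries, and the log2 fold change was 0.09 ± 0.10. *Six3* was at 43.3 and 48.1 CPM in WT and 51.4 and 35.8 CPM in Nrf1-CKO (-0.07 ± 0.15, adjusted p = 0.791). The ratio of *Six3os1* to *Six3* was 9.13 and 9.79 in WT and 9.01 and 12.8 in Nrf1-CKO and overlapped, but exons of the 2 genes overlap on opposite strands, so reads shared by them could be lost from or moved between the counts.

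Of the 8 eye-field genes listed with *Six3os1*, 0 were called in edgeR's quasi-likelihood test, in DESeq2 or with limma, and 0 had an unadjusted p under 0.05. In the edgeR test, 20.9% of all genes were called and 34.8% had an unadjusted p under 0.05. *Pax6* and *Otx2* had log2 fold changes of 0.02 ± 0.08 and -0.03 ± 0.08. Among 15 other lncRNA genes tested, 1 rose and 2 fell, where 10.3% and 7.55% of those typed as lncRNA did. *Sox2ot*, which spans the progenitor gene *Sox2*, rose from 5.40 and 6.48 CPM in WT to 12.8 and 8.91 CPM in Nrf1-CKO (0.87 ± 0.20, adjusted p = 0.0131). *C130071C03Rik*, the host of miR-9-2, fell from 15.5 and 15.4 CPM to 7.43 and 6.19 CPM (-1.18 ± 0.14, adjusted p = 0.000489), and *Pax6os1* fell by 0.71 ± 0.20 on the log2 scale (adjusted p = 0.0317). With limma on the deposited log2 values, 2 of the 15 were called. *Tug1*, *Rmst*, *Mir17hg* and *Firre* were not called, with log2 fold changes from -0.10 to 0.26.

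Levels were compared between genes per kilobase of annotated exon. *Malat1* was first in both genotypes, at 829 and 867 CPM per kb in WT, followed by *H19* (320 and 212), *Miat* (120 and 137), *Six3os1* (33.3 and 39.7) and *A930011O12Rik* (14.6 and 13). In either genotype, none of these 5 overlapped with the next in the order. *Rian* (1.84 and 1.96 CPM per kb in WT) and *Meg3* (1.5 and 1.84) came next and overlapped in both genotypes. *Snhg11* (0.867 and 1.17), *Mirg* (0.271 and 0.355) and *Neat1* (0.153 and 0.130) were last and separate in WT, whereas in Nrf1-CKO each overlapped with the next, at 0.499 and 0.285, 0.449 and 0.232, and 0.321 and 0.269 CPM per kb. Per kilobase of the longest transcript, *Neat1* was apart in Nrf1-CKO too, while *Snhg11* and *Mirg* still overlapped. Among 577 lncRNA genes with an annotated length, *Malat1* ranked 1, *H19* 3, *Miat* 4, *Six3os1* 8 and *A930011O12Rik* 23 in WT, and *Neat1* ranked 443. The long annotated *Neat1* of 20.8 kb lowers its value per kilobase if reads came mostly from a shorter form, which was not examined.

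**Figure D5:**
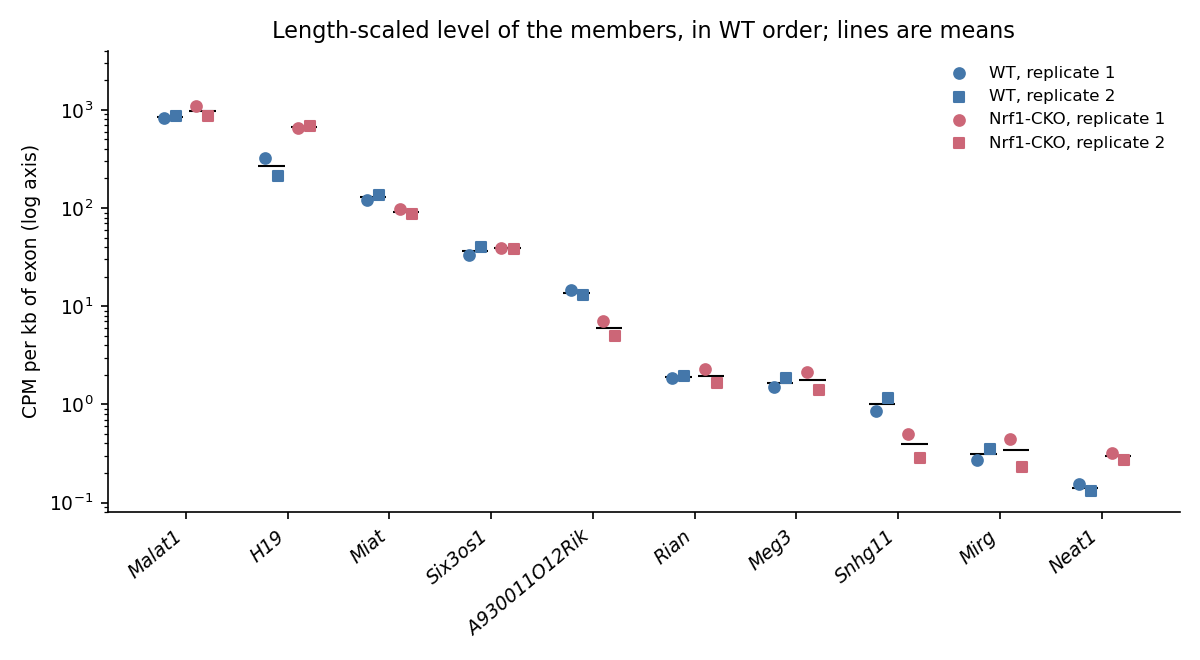
Level per kilobase of exon (CPM per kb, log axis) of the 10 lncRNAs in order of their WT mean, with points for libraries and lines for means. *Malat1* is above all others, and *Snhg11*, *Mirg* and *Neat1* are apart in WT but overlap in Nrf1-CKO, where *Neat1* is apart if the longest transcript is the length.

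The mutant libraries differed for some of these RNAs. In 9 of the 10 genes Nrf1-CKO replicate 1 was above replicate 2, the exception being *H19*, and the share was 51.9% over all genes tested and 53% over those typed as lncRNA. *Meg3*, *Rian* and *Mirg* come from 1 region and are not independent, so nothing is read from this count. Nrf1-CKO replicate 1 was the highest of the 4 libraries for 5 of 10 genes, with 23.8% of all genes tested and 27.4% of those typed as lncRNA for background. The gap between the mutant libraries was widest for *Mirg* (0.95 on the log2 scale), *Snhg11* (0.81) and *Meg3* (0.61), and least for *Six3os1* (0.01). The same library had the highest share of alignments outside annotated genes, 19.75% against 16.67% to 17.48% in the others, and the highest lens markers, and their part in these levels was not tested.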

How the data were processed

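RNA of pooled E13.5 retinas was sequenced in 2 WT and 2 Nrf1-CKO libraries, grouped by genotype as labelled. Per the study's methods the authors aligned paired-end reads to mm10 with Tophat 2.7.2 and counted them per gene with HTSeq; strand and annotation release are not given in the sources used here. The authors deposited these whole-number counts without normalization, and also deposited normalized values on a log2 scale, used only in an alternative. Summary entries (73.96% to 75.04% of all entries, of which non-unique alignments were the most) stayed out of library sizes, so genes with close copies lose reads.

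Counts were filtered with filterByExpr (minimum count 10) and scaled by TMM. The test was edgeR 4.0.16's quasi-likelihood F test (R 4.3.3) with Benjamini-Hochberg adjustment over 15762 genes, checked on simulated data. CPM uses the TMM library sizes, and SE is the log2 fold change over the root of F. Replicates differed by more than sampling noise (mean chi-square per gene 47.6 in WT and 59.1 in Nrf1-CKO). SDs rest on 2 libraries, and PCR copies are not independent molecules. Coordinates and exons come from GENCODE vM21 (GRCm38, equal to mm10), and sequences and biotypes come from RefSeq.

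Named genes are the 10 lncRNAs, the listed companion genes, the 3 closest profiles of *A930011O12Rik*, *Miat*, *Meg3* and *H19*, and neighbours within 100 kb. Members and lists were chosen with earlier results of these data known. Alternatives were DESeq2 1.42.0, other scalings, filters and thresholds, glmTreat, the replicate number as a block, the deposited log2 values with limma 3.58.1, each library left out, and the longest transcript as length. Values of some listed genes are not reported here.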

Additional observations from a re-analysis of the deposited data

How the results depend on the processing

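*A930011O12Rik* and *Snhg11* stayed called lower, and *H19* and *Neat1* higher, in all 13 alternative fits, while *Miat* was lost in 7 of them (DESeq2, upper-quartile factors, the stricter filter, glmTreat, limma, and without WT or Nrf1-CKO replicate 2), all with log2 fold changes from -0.49 to -0.38 beside a limit of 0.485 in size. The 4 genes near 0 that changed sign when a library was left out are *Meg3*, *Mirg*, *Rian* and *Six3os1*. The deposited log2 values gave smaller differences for the low genes *Neat1* (0.52) and *Snhg11* (-0.74), and the cause was not tested. Against 1268 genes called lower and 2024 higher, glmTreat gave 743 and 1188, and limma on the deposited values gave 723 and 945. Companion genes, 12 lower and 13 higher, came to 8 lower and 8 higher under glmTreat and to 7 lower and 11 higher with limma. With 1 library left out, genes called ran from 1071 to 1402 lower and from 1703 to 1856 higher, and companion genes from 10 to 13 lower and from 12 to 15 higher. With the replicate block, 1256 genes were called lower and 1970 higher, and the companion calls were 12 and 15. Deviations of same-numbered libraries had a correlation of -0.0025, so the numbers were not taken as pairs. Scaling moved the median of all genes by at most 0.04. With the longest transcript as length, *Rian* and *Meg3* no longer overlapped, *Mirg* ranked above *Snhg11* in Nrf1-CKO, and *Neat1* there no longer overlapped with the gene above it. With 2 libraries per genotype, a small difference can rest mostly on 1 library. That of *Malat1*, under the 1.4-fold limit, became 0.04 without Nrf1-CKO replicate 1.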
